A study of Homo sapiens with 2 samples.

Results

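Levels of 9 imprinted genes, DLK1, MEG3, IGF2, H19, PEG3, PEG10, NNAT, GNAS and PLAGL1, were followed across the cell classes of stem-cell-derived islet clusters. The genes were picked by symbol from the list of 33694 genes counted in each library. Of the 9 symbols, 8 matched, and H19, which did not match, was not analysed here. Both libraries came from iSOX9KO cells, a derivative of the human embryonic stem cell line Mel1-INS-GFP that carries green fluorescent protein at the INS locus, constitutive guide RNAs against SOX9 and a doxycycline-inducible Cas9 at AAVS1, and that was used as a single clone. Cells were differentiated towards pancreatic endocrine cells, GFP-high cells were sorted and reaggregated into enhanced beta clusters (eBCs), and 1 library was made without doxycycline (no DOX) and 1 with doxycycline at 2 ug/ml from day 12 (DOX). SOX9 is a transcription factor of pancreatic progenitors and ducts. The cells of every class below came from eBCs, which were cultured on after the sort for the insulin reporter. Before the libraries were made, only a sort for live cells is described.

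An imprinted gene is transcribed mainly from 1 parental copy, chosen by DNA methylation laid down in the germ line. Many imprinted genes act on fetal growth, and several are known in the islet, where a gain of PLAGL1 expression causes transient neonatal diabetes and loss of the DLK1-MEG3 transcripts has been described in diabetic islets. DLK1 is a membrane protein with epidermal growth factor repeats related to the Notch ligands, and MEG3 is a long noncoding RNA made from the other parental copy of the same domain. IGF2 is a fetal growth factor next to the noncoding RNA gene H19. PEG10 derives from a retrotransposon, PEG3 and PLAGL1 encode zinc finger proteins, and NNAT encodes a small membrane protein of the endoplasmic reticulum. GNAS encodes the stimulatory G protein alpha subunit that couples receptors for incretins and glucagon to adenylyl cyclase. The UMI counts did not separate the parental copies, so every value below is the sum of both.

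In GENCODE 44 on GRCh38, DLK1 lay at chr14:100725705-100738224 and MEG3 at chr14:100779410-100861031, both on the plus strand and 41.2 kb apart. IGF2 lay at chr11:2129112-2158391 on the minus strand, 1.4 kb from INS and 124.6 kb from H19 (chr11:1995166-2004552, minus strand). PEG3 lay at chr19:56810077-56840728 (minus), PEG10 at chr7:94656325-94669695 (plus), NNAT at chr20:37521206-37523690 (plus), GNAS at chr20:58839718-58911192 (plus) and PLAGL1 at chr6:143940300-144064599 (minus). MEG3 and H19 are annotated as long noncoding RNAs and the other members as protein coding. The exons of the readthrough gene INS-IGF2 covered 20.4% of the exonic bases of IGF2 on the same strand, and IGF2-AS covered 4.66% on the other strand. ZIM2 shared 12.9% of the exonic bases of PEG3, SGCE 3.27% of those of PEG10, BLCAP 6.4% of those of NNAT and GNAS-AS1 5.07% of those of GNAS. The many transcripts of GNAS (77) and MEG3 (50) were each counted as 1 gene, so the GNAS value does not tell its alternative promoters apart.

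RefSeq promoter windows of GRCh38.p14, running from 250 bases before to 50 bases after a start, were at hand for MEG3, GNAS, PLAGL1 and H19. For each of the first 3, which have values here, the window with the most CpG dinucleotides is shown, because CpG methylation is the mark through which imprinting is kept. All 3 windows lie inside the gene spans given above and not at their first base. The counts do not tell which start gave the UMIs. Capitals mark each CpG.
MEG3, chr14:100825858-100826157, plus strand: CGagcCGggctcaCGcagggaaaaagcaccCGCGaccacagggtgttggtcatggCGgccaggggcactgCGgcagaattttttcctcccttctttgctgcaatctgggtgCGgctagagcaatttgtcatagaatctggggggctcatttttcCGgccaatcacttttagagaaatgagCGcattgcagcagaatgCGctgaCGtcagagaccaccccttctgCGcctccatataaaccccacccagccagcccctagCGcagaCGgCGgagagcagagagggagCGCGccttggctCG
GNAS, chr20:58888930-58889229, plus strand: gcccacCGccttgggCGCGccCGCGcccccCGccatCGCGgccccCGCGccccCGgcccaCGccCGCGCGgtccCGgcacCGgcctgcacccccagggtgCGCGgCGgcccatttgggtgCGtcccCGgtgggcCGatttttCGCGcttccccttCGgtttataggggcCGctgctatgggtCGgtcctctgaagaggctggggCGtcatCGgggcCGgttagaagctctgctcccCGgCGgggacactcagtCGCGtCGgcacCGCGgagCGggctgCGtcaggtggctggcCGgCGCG
PLAGL1, chr6:144008210-144008509, minus strand: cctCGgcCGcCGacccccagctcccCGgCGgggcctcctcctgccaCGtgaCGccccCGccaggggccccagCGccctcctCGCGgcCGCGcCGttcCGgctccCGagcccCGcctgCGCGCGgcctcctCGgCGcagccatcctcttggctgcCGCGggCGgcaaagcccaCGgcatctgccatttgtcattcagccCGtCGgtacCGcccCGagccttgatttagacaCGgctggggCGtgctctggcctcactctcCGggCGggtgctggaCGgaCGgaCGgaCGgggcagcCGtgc
The windows held 19, 43 and 39 CpG dinucleotides, against a median of 14 over 35116 windows, and 57.1%, 95% and 91.3% of those windows held fewer. The other windows of PLAGL1 held between 2 and 31 and those of GNAS between 10 and 34. The PLAGL1 window held 1 copy of GGGGCCCC, a palindrome known to be bound by the PLAGL1 protein, which 1.95% of all windows held. AACAAT, the core read by SOX factors, was in none of the 3 windows on either strand, while 10.1% of all windows held it, among them 1 of the other PLAGL1 windows.

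The library labelled no DOX held 30288 barcodes and 550240855 UMIs, and the library labelled DOX held 31817 barcodes and 520849221 UMIs. After removal of barcodes under 1000 UMIs and of the 26.6% and 26.5% called as doublets, 44921 cells were kept. They were clustered without the members and the other imprinted genes listed, so that the classes do not rest on the members. By their markers 330 of them were duct-like, 785 proliferating progenitor-like (below, proliferating), 4585 delta-like, 9351 alpha-like, 17003 beta-like and 10549 beta cell progenitor-like (below, progenitor-like). A further 2318 cells with a median of 71.0% mitochondrial UMIs stayed unnamed. INS was counted in every class, from 16581 UMIs per 1e+06 (CPM) in duct-like to 194186 CPM in beta-like cells. UMIs of free RNA or of a second cell may be among low values, and their part was not tested. SOX9 stood at 3.78 CPM (1147 UMIs, labelled DOX) and 2.998 CPM (946 UMIs, labelled no DOX), and in duct-like cells at 283 against 254 CPM. Over the endocrine classes it was lower in the library labelled DOX, at 0.955 (278 UMIs) against 1.03 CPM (312 UMIs), with 95% intervals that overlapped. An edited transcript still gives a UMI, so this count does not check the edit, and the conditions are named here only by their labels. The libraries shared 369 barcode sequences.

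With 1 library per condition there were no replicates of a condition and no test was possible. Levels are CPM of the UMIs summed over a class, written with both libraries where their spread matters, and the 95% intervals cover counting error only. A ratio is given as log2. Levels of different genes were not set against each other, because UMIs of a gene depend on where its transcripts end.

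DLK1 was measured in every class and was led by the duct-like and beta-like cells. Duct-like cells had 5946 CPM (labelled no DOX) and 7157 CPM (labelled DOX), and pairs of values below keep this order. In beta-like cells it stood at 693 and 666 CPM, and in proliferating cells at 264 and 255 CPM. Progenitor-like cells had 214 and 299 CPM, delta-like cells 94.2 and 97.3 CPM and alpha-like cells 37.9 and 42.2 CPM. The 2 progenitor classes overlapped over the libraries, and every other neighbouring pair in this order was separate in both. The log2 ratio of beta-like over alpha-like cells was 4.09 (95% interval 4.05 to 4.13) and was 4.19 and 3.98 within the libraries. The part of free RNA in the alpha-like level was not tested, so this ratio describes the counts and the interval does not cover that part. With doublets kept it fell to 2.23.

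MEG3 followed the same order at its upper end. It stood at 123 and 89.8 CPM in duct-like cells, at 9.77 and 9.06 CPM in beta-like cells, at 3.04 and 2.82 CPM in progenitor-like cells and at 2.47 and 2.24 CPM in proliferating cells. Alpha-like and delta-like cells had 0.386 and 0.385 CPM over both libraries, from 47 and 23 UMIs, and could not be placed in order. The log2 ratio of duct-like over the 4 endocrine classes was 4.30 (4.17 to 4.43) for MEG3 and 4.04 (4.03 to 4.06) for DLK1. Over 13 alternatives it ran from 3.83 to 4.81 for MEG3 and from 3.54 to 5.41 for DLK1.

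IGF2 was also led by the duct-like cells, at 6419 and 6130 CPM. Beta-like cells had 1141 and 1270 CPM, alpha-like cells 604 and 675 CPM, proliferating cells 335 and 370 CPM, progenitor-like cells 240 and 392 CPM and delta-like cells 199 and 219 CPM. The ranges of the 2 progenitor classes overlapped, and the other neighbours in this order did not. Unlike DLK1, IGF2 was lowest in delta-like cells, and the log2 ratio of beta-like over alpha-like cells was 0.93 (0.92 to 0.94) against 4.09 for DLK1. INS-IGF2, whose exons overlap those of IGF2, reached 13.0 CPM in beta-like and 13.8 CPM in alpha-like cells.

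PLAGL1, a regulator of other imprinted genes, was led by beta-like cells with 127 and 151 CPM. Alpha-like cells had 63.6 and 68.3 CPM and proliferating cells 51.9 and 71.4 CPM, ranges that overlapped. Progenitor-like cells (35.01 and 37.8 CPM), duct-like cells (29.4 and 39.99 CPM) and delta-like cells (29.7 and 33.8 CPM) closed the order. The duct-like range overlapped those of progenitor-like and delta-like cells, and the progenitor-like range lay above the delta-like range. The duct-like cells, which had the highest DLK1, MEG3 and IGF2, were thus below the beta-like cells in PLAGL1 in both libraries.

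PEG10 was ordered differently. Proliferating cells had 1561 and 2374 CPM and alpha-like cells 1406 and 1990 CPM, with overlapping ranges. Beta-like cells had 687 and 967 CPM, duct-like cells 1006 and 505 CPM, progenitor-like cells 488 and 614 CPM and delta-like cells 367 and 449 CPM. Alpha-like cells were above beta-like cells and beta-like cells above delta-like cells in both libraries. The duct-like value could not be placed, since it was above the beta-like value under the no DOX label and below it under the DOX label. SGCE, which starts beside PEG10 on the opposite strand, stood between 10.6 and 17.4 CPM in the 6 classes.

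GNAS was the most even of the 6 members with UMIs. Alpha-like cells had 2819 and 2701 CPM, proliferating cells 1621 and 1701 CPM and beta-like cells 1480 and 1499 CPM. Progenitor-like cells (1379 and 1325 CPM) and delta-like cells (1311 and 1358 CPM) overlapped, and duct-like cells had 1229 and 1017 CPM. The log2 ratio of beta-like over alpha-like cells was -0.89 (-0.90 to -0.89). GNAS-AS1 was near 0 in every class, at 0.118 CPM or less.

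PEG3 and NNAT had 0 UMIs in all 62105 barcodes of both libraries, before any filter. The limit that a count of 0 allows, taken as 3 UMIs or 3 barcodes of the total, was 0.00280 CPM over all barcodes and a UMI in 0.00483% of them, which limits barcodes with a UMI and not cells that express the gene. In the duct-like cells, the class with the fewest UMIs, 3 UMIs came to 0.542 CPM. ZIM2, a neighbour of PEG3, also had 0 UMIs in the cells kept, and USP29 had 1, while BLCAP, whose gene contains NNAT, had 12.3 to 23.1 CPM.

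**Figure D1:**
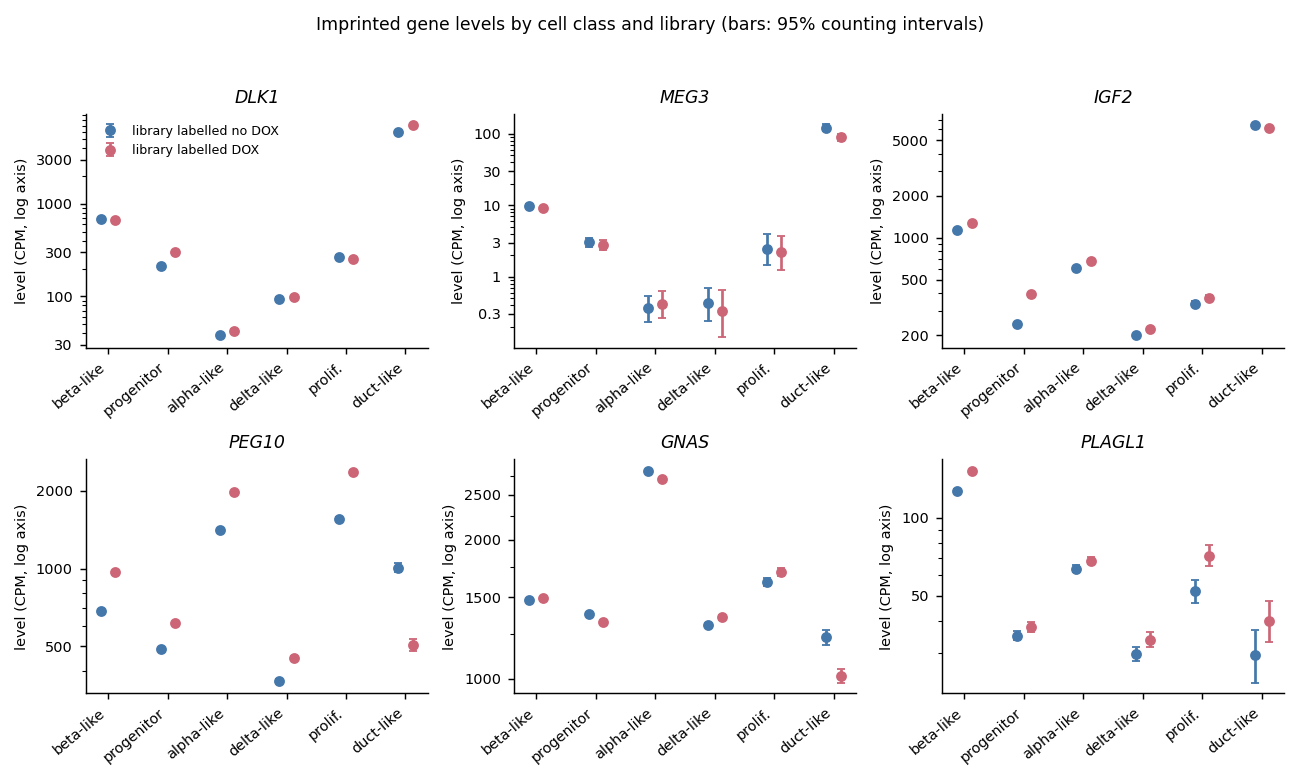
Levels of the 6 members with UMIs, in CPM on a log axis that differs between panels, for the 6 named classes, with 1 point per library (blue, labelled no DOX; red, labelled DOX) and bars for 95% counting intervals. DLK1, MEG3 and IGF2 peak in duct-like cells, PLAGL1 in beta-like cells, GNAS in alpha-like cells, and PEG10 in proliferating progenitor-like and alpha-like cells.

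Counts of members past a 2-fold difference between classes are given beside the share of all tested genes past the same fold. Of the 5 members with at least 10 CPM in beta-like or alpha-like cells, DLK1 and PLAGL1 were at least 2-fold higher in beta-like cells, as were 4.8% of the 8204 genes tested, and 0 were at least 2-fold lower (5.62% of genes). With doublets kept the PLAGL1 ratio fell from 1.09 to 0.76. PEG10, at a log2 ratio of -0.99 over both libraries, was just short of that fold and past it in each library alone (-1.03 and -1.04). Of 5 members against delta-like cells, DLK1, IGF2, PEG10 and PLAGL1 were at least 2-fold higher in beta-like cells (5.69% of 8205 genes) and 0 were lower (4.56%). The PEG10 ratio there was 1.07 over both libraries and 0.90 in the library labelled no DOX alone, and was below the fold in 4 of 13 alternatives. Against progenitor-like cells, DLK1, IGF2 and PLAGL1 of 5 members were higher in beta-like cells (3.46% of 9276 genes) and 0 were lower (26.7%). Their log2 ratios were 1.42, 1.96 and 1.95, whereas the median over all genes tested was -0.60.

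In duct-like cells, DLK1, MEG3 and IGF2 of 6 members were at least 2-fold above the endocrine classes, beside 19.7% of the 9664 genes tested, and PLAGL1 was at least 2-fold below them, beside 16.5%. MEG3 was tested only because duct-like cells reached 10 CPM, with 5.30 CPM in the endocrine classes. Passing that filter nearly set its call. The PLAGL1 ratio was -1.39 (-1.60 to -1.19) and -0.69 with doublets kept. In proliferating cells PEG10 was higher (11.6% of 9223 genes) and IGF2 lower (1.85%). Those 2 ratios, 1.10 and -1.20, lay close to the fold: PEG10 was below it in 2 of 12 alternatives (lowest 0.46) and IGF2 in 5 (nearest to 0 at -0.60).

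The duct-like cells were the smallest class, with 152 and 178 cells, and other cell types' markers moved with them. Of 8 mesenchyme markers, genes known to accompany high IGF2, DLK1 and MEST, 0 reached 10 CPM in duct-like cells, their sum was 18.2 CPM against 3.46 to 13.5 CPM in the other named classes, and DCN and LUM were at 0. Of 8 acinar markers, 3 passed 10 CPM, PNLIP was at 0, and the sum was 129 CPM (labelled no DOX) and 503 CPM (labelled DOX), against 0.835 to 6.44 CPM over both libraries in the other named classes and 34.2 CPM in the unnamed cells. All 13 markers of proliferating cells passed 10 CPM in duct-like cells, with a sum of 1278 CPM (labelled no DOX) and 1401 CPM (labelled DOX), against 6.47 to 24.7 CPM in the endocrine classes and 3681 CPM in proliferating cells. Of 6 pluripotency markers LIN28A passed 10 CPM in duct-like cells, POU5F1 was at 0, and the sum was 31.1 CPM, against 8.62 CPM or less in the other classes. All 6 liver markers passed 10 CPM in duct-like cells, ALB and FGB among them, with a sum of 6118 and 6205 CPM, while sums in the other named classes were 4747 to 40297 CPM, carried by TTR, SERPINA1 and, in some classes, APOA2 and AFP. Duct markers summed to 8581 CPM (labelled no DOX) and 5414 CPM (labelled DOX). The part of such cells in the duct-like values was not tested.

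A separate clustering at a finer resolution gave 9602 Beta-1-like cells, 2744 cells with fewer Beta-1 markers led by the metallothionein gene MT1B, and 4274 Beta-2-like cells. Of the 17003 beta-like cells 9602, 2733 and 4179 lay in these clusters, and the rest in others, 256 of them in an alpha-like cluster and 201 in an unnamed cluster led by LYZ. DLK1 stood at 1054 and 848 CPM in Beta-1-like cells, at 463 and 378 CPM in the MT1B-led cells and at 368 and 445 CPM in Beta-2-like cells. IGF2 stood at 1547 and 1636 CPM, 1104 and 1028 CPM, and 635 and 636 CPM in the same order. PLAGL1 stood at 216 and 217 CPM in Beta-1-like cells, against 58.2 and 60.0 CPM in the MT1B-led and 65.2 and 67.8 CPM in Beta-2-like cells. MEG3 went the other way, with 5.86 and 5.01 CPM in Beta-1-like, 1.55 and 1.20 CPM in MT1B-led and 21.7 and 24.0 CPM in Beta-2-like cells. In this clustering DLK1 and MEG3, neighbours in the genome, were highest in different beta-like clusters. For DLK1 this depended on how cells were clustered, as given below.

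Of 6 members tested, DLK1, IGF2 and PLAGL1 were at least 2-fold higher in Beta-1-like than in Beta-2-like cells, beside 1.64% of 8039 genes, and MEG3 was at least 2-fold lower, beside 3.98%. MEG3 was tested only because Beta-2-like cells reached 10 CPM, at 22.8 against 5.34 CPM in Beta-1-like cells. Passing that filter nearly set its call. The log2 ratios were 1.19 (1.18 to 1.21) for DLK1, 1.33 (1.32 to 1.35) for IGF2, 1.71 (1.66 to 1.75) for PLAGL1 and -2.10 (-2.22 to -1.98) for MEG3. This split depended on how cells were clustered: DLK1 was below the fold in 7 of 9 alternatives (0.93 in the library labelled DOX alone) and PLAGL1 in 2 of 9. Without balancing the libraries both turned direction, to -0.11 and -0.83. IGF2 and MEG3 kept their direction and fold in all 9 alternatives run, between 1.28 and 2.43 and between -3.21 and -1.89.

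The progenitor-like cells were also mixed. Of the 10549 cells of the class, 8786 lay in a finer progenitor-like cluster of 8791 cells, 913 in a progenitor-like cluster led by CA2, a carbonic anhydrase gene, and 708 in the unnamed cluster of 1144 cells led by LYZ, a lysozyme gene. DLK1 stood at 128 and 164 CPM in the largest of the 3 clusters, at 1125 and 1136 CPM in the CA2-led cells and at 607 and 926 CPM in the LYZ-led cells. IGF2 stood at 194 and 355 CPM, 1038 and 929 CPM, and 305 and 262 CPM in the same order. PEG10 was 1027 and 1164 CPM in the CA2-led cells and 455 and 557 CPM in the largest cluster. PLAGL1 stood at 21.4 and 17.4 CPM in the CA2-led cells, 34.3 and 39.2 CPM in the largest cluster and 48.1 and 61.7 CPM in the LYZ-led cells.

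**Figure D2:**
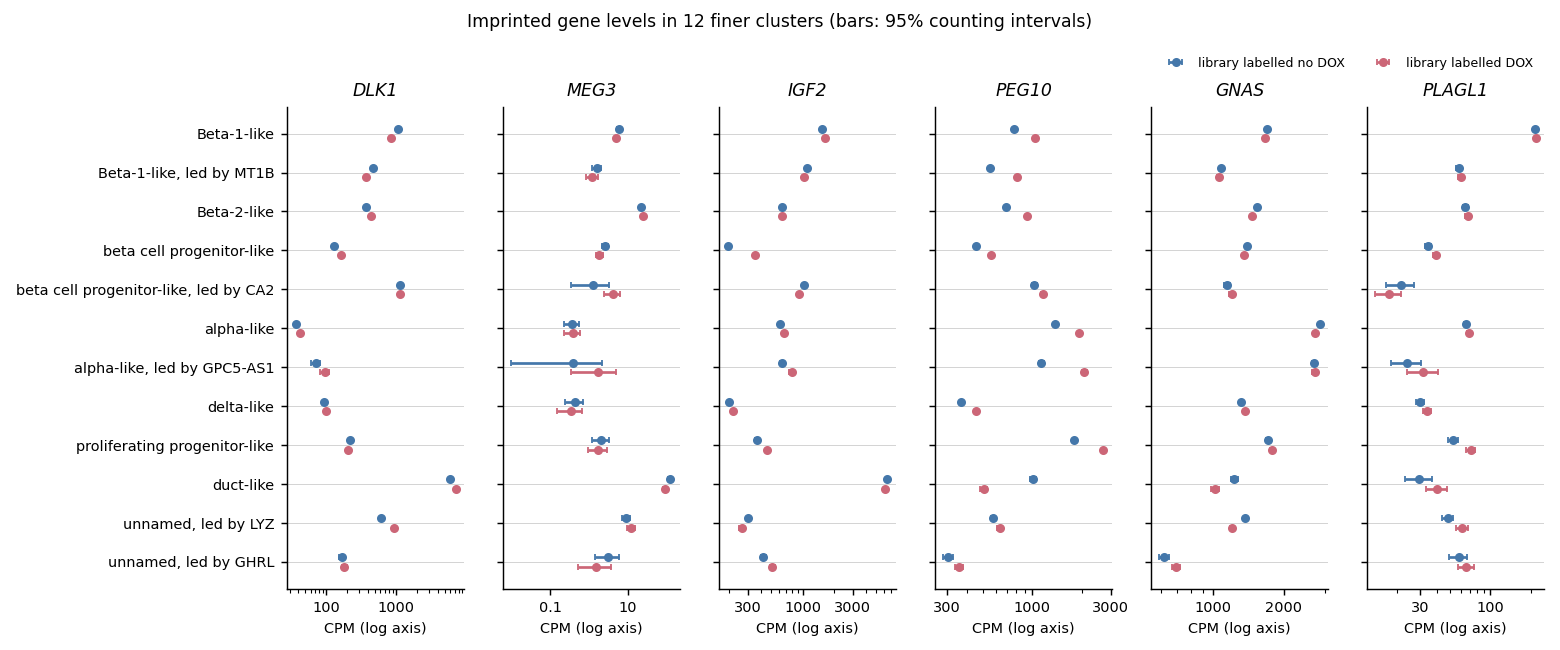
Levels of the 6 members in 12 finer clusters with at least 50 cells in each library, in CPM on log axes, with 1 point per library and bars for 95% counting intervals. PLAGL1 stands highest in Beta-1-like cells (216 and 217 CPM), MEG3 is higher in Beta-2-like (21.7 and 24.0 CPM) than in Beta-1-like cells, and the CA2-led progenitor-like cells lie near Beta-1-like cells in DLK1.

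Between the libraries, 0 of the 5 members with at least 10 CPM differed by 1.5-fold over all cells kept, beside 0.493% of the 8323 genes tested (0.144% higher and 0.348% lower in the library labelled DOX). PEG10 moved from 785 CPM (labelled no DOX) to 1056 CPM (labelled DOX), a log2 ratio of 0.43 (0.42 to 0.44). PLAGL1 moved from 80.1 to 102 CPM (0.35, interval 0.33 to 0.38), IGF2 from 746 to 939 CPM (0.33, interval 0.32 to 0.34) and DLK1 from 410 to 494 CPM (0.27, interval 0.26 to 0.28). GNAS was 1725 and 1656 CPM (-0.06, interval -0.06 to -0.05) and MEG3, below the level for a count, 5.92 and 6.27 CPM. The median of all genes tested was -0.01. With every named class weighted equally, IGF2 fell to 0.02 and MEG3 to -0.41. The narrow intervals come from many UMIs and say nothing of how 2 libraries of 1 condition would differ.

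Within beta-like cells 0 of 5 members were 1.5-fold apart (0.573% of 7685 genes, 0.104% higher and 0.468% lower in the library labelled DOX), and the class ratios of several members were not those of its finer clusters. PLAGL1 had a log2 ratio of 0.25 in the beta-like class, but 0.01 in Beta-1-like, 0.04 in MT1B-led and 0.06 in Beta-2-like cells. Beta-1-like cells, where PLAGL1 was highest, numbered 3397 (labelled no DOX) and 6205 (labelled DOX). IGF2 had 0.15 in the class, and 0.08, -0.10 and 0.00 in the 3 clusters. DLK1 had -0.06 in the class (0.03 with means of log-normalized values, the 1 of 11 alternatives that turned its direction), with -0.31 and -0.29 in the Beta-1-like and MT1B-led clusters and 0.27 in Beta-2-like cells. PEG10, at 0.49 in the class, had 0.43, 0.53 and 0.44 and so was higher in the library labelled DOX in each of them.

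In progenitor-like cells IGF2 was the 1 of 5 members past 1.5-fold (0.472% of 9105 genes, 0.253% higher and 0.22% lower), with a log2 ratio of 0.71 (0.68 to 0.74) and 0.64 to 0.76 over 11 alternatives. It was 0.87 (0.83 to 0.90) in the larger progenitor-like cluster, -0.16 (-0.23 to -0.09) in the CA2-led cells and -0.22 (-0.31 to -0.13) in the LYZ-led cells. DLK1 had 0.48 (0.45 to 0.51) in the class, 0.35 in the larger cluster, 0.01 in the CA2-led cells, which numbered 350 and 563, and 0.61 in the LYZ-led cells. In alpha-like cells 0 of 5 members were past 1.5-fold (0.685% of 7885 genes, 0.254% higher and 0.431% lower), and in delta-like cells 0 of 5 (0.424% of 7788 genes, 0.103% higher and 0.321% lower).

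PEG10 was past 1.5-fold in proliferating cells, higher in the library labelled DOX at 0.60 (0.57 to 0.64), the 1 of 5 members there (1.45% of 9109 genes, 0.703% higher and 0.747% lower). It ranged from 0.44 to 0.63 over 10 alternatives and was below the fold in 4. Other classes' markers moved between the libraries there too. The sum of 12 delta markers, 5 of them at 10 CPM or more, went from 23687 CPM (labelled no DOX) to 12823 CPM (labelled DOX), and that of 14 alpha markers, 10 of them at 10 CPM or more, from 11949 to 13833 CPM. Their part in the PEG10 value was not tested. In duct-like cells PEG10 was lower in the library labelled DOX at -0.99 (-1.09 to -0.90), and at -0.33 with doublets kept. It was the 1 of 6 members past the fold there, beside 13.4% of 8897 genes, 5.97% higher and 7.45% lower. A count of 1 of 6 lies near that 13.4%. PLAGL1, at 0.45 in this class, was past the fold in 3 of 11 alternatives (highest 0.87). The acinar and duct marker sums given above differed between the libraries in this class too, and their part in the PEG10 value was not tested.

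**Figure D3:**
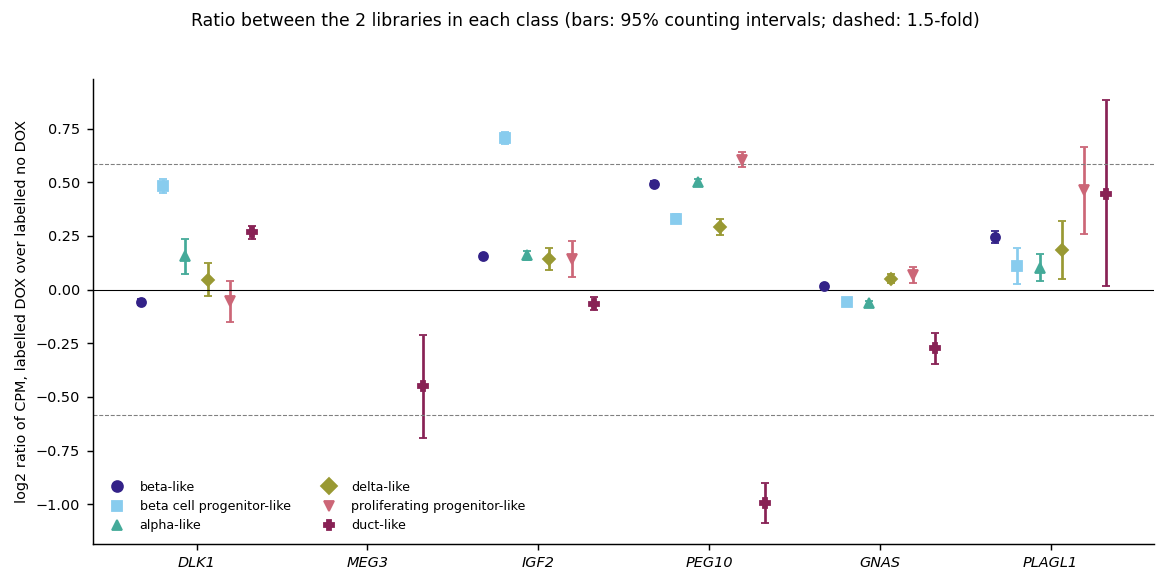
Log2 ratio of CPM in the library labelled DOX over the library labelled no DOX for each member and class with at least 10 CPM in a library, with 95% counting intervals and dashed lines at 1.5-fold. IGF2 in beta cell progenitor-like cells (0.71) and PEG10 in proliferating progenitor-like cells (0.60) lie above the upper line, and PEG10 in duct-like cells (-0.99) lies below the lower line.

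Shares of cells with at least 1 UMI were taken after thinning each cell to 5000 UMIs, which left out shallower cells. DLK1 had a UMI in 99.4% of 323 duct-like cells, 68.1% of 16321 beta-like, 31.1% of progenitor-like, 30.4% of delta-like, 28.6% of proliferating and 15.8% of alpha-like cells. Before thinning these were 100%, 86.0%, 46.3%, 52.6%, 50.6% and 31.8%. The alpha-like share came with a mean of 0.20 UMIs per thinned cell. The part of free RNA in it was not tested, and no expression is read from it. IGF2 had a UMI in 100% of duct-like and 77.4% of beta-like cells, down to 41.2% of delta-like cells, and before thinning in 100%, 91.4% and 65.5%.

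MEG3 was sparse. After thinning it had a UMI in 35.3% (30.1 to 40.8) of duct-like cells, 3.76% (3.48 to 4.07) of beta-like cells and 0.219% (0.13 to 0.345) of alpha-like cells, and before thinning in 67.9%, 9.20% and 0.460%. In Beta-2-like cells the share was 8.88% (8.03 to 9.78), in Beta-1-like cells 2.30% (2.01 to 2.63). GNAS had a UMI in at least 99.2% of the cells of each named class. PEG10 ranged from 70.4% of delta-like to 95.6% of proliferating cells, and PLAGL1 from 14.8% of delta-like to 37.2% of beta-like cells. Before thinning these were 87.3% and 98.98% for PEG10 and 30.0% and 63.1% for PLAGL1.

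Within a class the UMIs of DLK1 and IGF2 were unevenly spread. The 10% of thinned beta-like cells with the most UMIs held 50.2% of the DLK1 UMIs, 44.8% of the IGF2 UMIs and 26.8% of the GNAS UMIs. In progenitor-like cells the same 10% held 78.9% of the DLK1 UMIs and in duct-like cells 19.05%. Mean DLK1 UMIs per thinned cell were 3.61 in beta-like, 1.22 in progenitor-like and 33.9 in duct-like cells. The share held by the top 10% depends on this mean, so the classes are not ranked by it. DLK1 and MEG3 UMIs were also compared cell by cell. In thinned Beta-2-like cells DLK1 was found in 77.0% (72.3 to 81.2) of the 369 cells with MEG3 and in 52.1% (50.5 to 53.7) of the 3788 without it, and in Beta-1-like cells in 94.0% (89.9 to 96.7) of 215 and in 76.1% (75.2 to 77.0) of 9127. In beta-like cells IGF2 was found in 85.9% (85.0 to 86.7) of 6072 cells with PLAGL1 and in 72.4% (71.5 to 73.2) of 10249 without it. Within the finer clusters these shares were 90.4% and 75.4% in Beta-1-like and 66.7% and 62.0% in Beta-2-like cells, and in delta-like and proliferating cells, at 42.9% and 40.9% and at 52.0% and 57.1%, their intervals overlapped. DLK1 was found in 70.5% of beta-like cells with IGF2 and in 60.0% without it, and in 36.2% and 26.2% of progenitor-like cells. In delta-like cells it was found in 28.9% and 31.5%, with overlapping intervals, and in alpha-like cells in 15.8% with or without IGF2. By finer cluster these shares were 77.1% and 73.8% in Beta-1-like, 60.8% and 50.6% in MT1B-led and 59.1% and 46.1% in Beta-2-like cells. They were 28.6% and 23.4% in the larger progenitor-like cluster, 75.2% and 57.8% in the CA2-led cells and 46.6% and 46.0% in the LYZ-led cells. Cells of 1 library are not replicates, so these intervals cover counting error only.

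**Figure D4:**
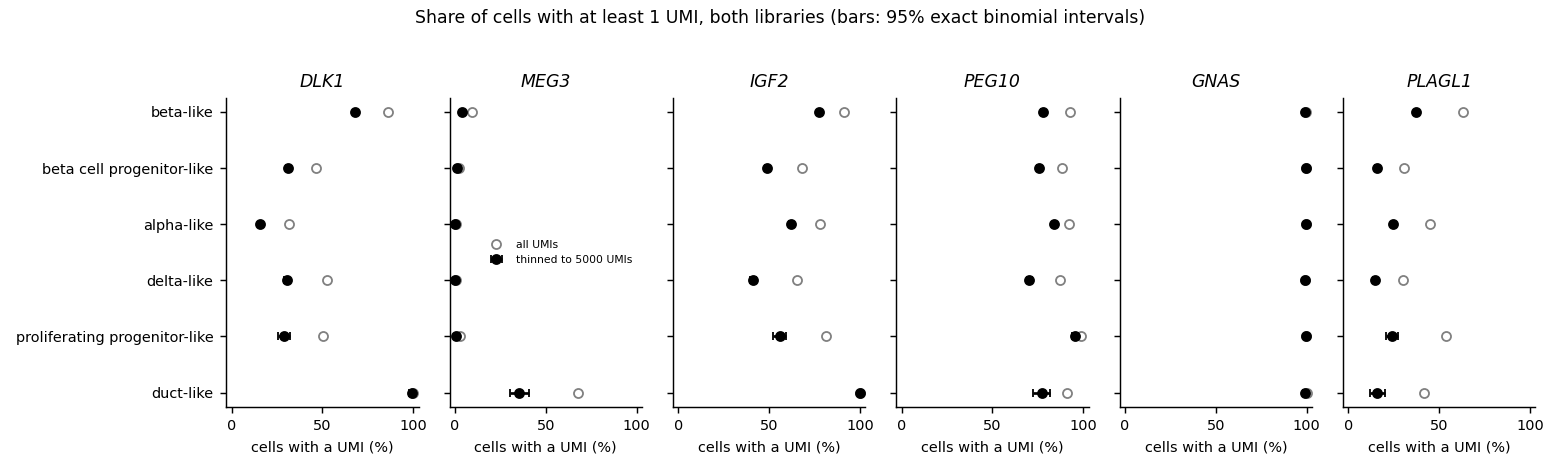
Share of cells with at least 1 UMI of each member in the 6 named classes of both libraries, in percent, after thinning to 5000 UMIs (filled, with exact binomial 95% intervals) and with all UMIs (open). GNAS is found in nearly every cell, MEG3 in 35.3% of duct-like cells and few others, and DLK1 and IGF2 fall from duct-like through beta-like to the other classes.

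The other imprinted genes gave a background for the members. Of 49 listed, 46 matched, and 16 reached 10 CPM over all cells of a library. Between the libraries 0 of these 16 were 1.5-fold apart over all cells, beside 0.493% of all genes, and their median log2 ratio was -0.04. In beta-like cells PHLDA2, a maternally expressed gene that restrains placental growth, was the 1 of 17 tested that was past the fold, at 17.5 CPM (labelled no DOX) and 9.59 CPM (labelled DOX), a log2 ratio of -0.87 (-0.96 to -0.78), beside 0.468% of all genes lower. PHLDA2 reached 10 CPM, and so was tested, only through the library labelled no DOX. Its ratio was not computed within the finer beta-like clusters, so a shift in their cell numbers may be part of it and was not tested. CDKN1C, a cell cycle inhibitor made from the maternal copy near IGF2, had 490 CPM in beta-like, 225 CPM in duct-like, 167 CPM in alpha-like, 108 CPM in progenitor-like cells, then 81.0 CPM in delta-like cells and 49.2 CPM in proliferating cells. It was at least 2-fold higher in beta-like than in alpha-like, delta-like and progenitor-like cells, as were PHLDA2, DLK1 and PLAGL1. Of 18 other imprinted genes tested in each of these 3 comparisons, 3, 4 and 3 were at least 2-fold higher in beta-like cells, beside 4.8%, 5.69% and 3.46% of all genes, and 0, 2 and 2 were lower, beside 5.62%, 4.56% and 26.7%. Besides CDKN1C, the higher genes were PHLDA2, with DIO3 over alpha-like and delta-like cells and INS-IGF2 over delta-like and progenitor-like cells. All but CDKN1C were under 10 CPM in the other class and were tested only through beta-like cells. Passing that filter nearly set their calls, so these counts are not read against the shares of all genes.

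In the domain of DLK1 and MEG3, RTL1, a retrotransposon-derived gene, had 5.78 CPM in duct-like cells, from 32 UMIs, and 0.148 CPM or less in the other named classes. DIO3, a thyroid hormone deiodinase gene 699.1 kb from MEG3, had 45.5 CPM in duct-like cells, 13.2 CPM in progenitor-like and 12.6 CPM in beta-like cells, and 1.58 and 1.36 CPM in alpha-like and delta-like cells. Near IGF2, the antisense gene IGF2-AS had 63.7 CPM in duct-like and 4.38 CPM in beta-like cells, and its exons overlap those of IGF2 on the opposite strand, which the sources used here do not state to have been counted apart. KCNQ1OT1, the noncoding RNA that silences the CDKN1C domain, had 224 CPM in duct-like and 118 CPM in beta-like cells. MEST, a paternally expressed hydrolase gene, had 373 CPM in duct-like cells, ahead of delta-like cells at 118 CPM and beta-like cells at 36.5 CPM.

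Of 17 other imprinted genes tested between duct-like cells and the endocrine classes, MEST, KCNQ1OT1, DIO3 and IGF2-AS were at least 2-fold higher and SNRPN, ZDBF2 and INS-IGF2 at least 2-fold lower, with a median of 0.01 beside 0.10 over all genes. Of all genes tested there 19.7% were higher and 16.5% lower, so the 4 and 3 of 17 lay near the background. SNRPN and NDN, genes of the Prader-Willi domain, ranged from 84.9 to 216 CPM and from 70.4 to 130 CPM. ZDBF2 was led by progenitor-like cells, at 60.5 CPM against 15 CPM in beta-like cells. UBE3A, PPP1R9A, NLRP2, INPP5F, BLCAP and PHACTR2 lay between 12.3 and 90.8 CPM in all 6 named classes. Within that range NLRP2 was at least 2-fold lower in beta-like than in progenitor-like cells, as were 26.7% of all genes tested.

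**Figure D5:**
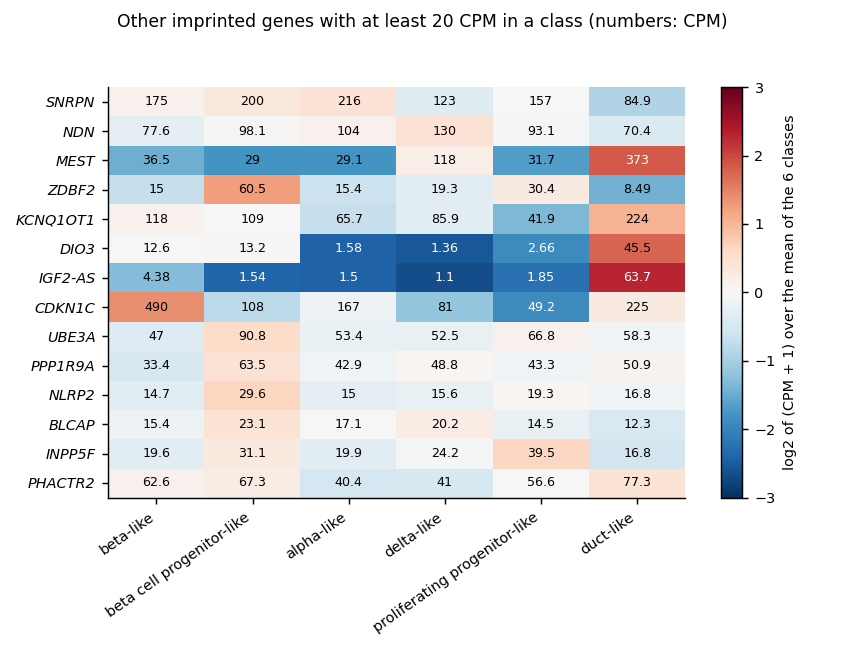
CPM of the 14 other imprinted genes with at least 20 CPM in a named class, over both libraries, with colour for the log2 of CPM + 1 over the mean of the 6 classes. MEST, DIO3, IGF2-AS and KCNQ1OT1 are highest in duct-like cells, CDKN1C in beta-like cells and ZDBF2 in beta cell progenitor-like cells.

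The receptors and binding proteins of IGF2 differed in where they were highest. IGF1R, which carries the growth signal, had 63.4 CPM in beta-like, 72.0 CPM in alpha-like and 32.5 CPM in duct-like cells, and IGF2R, which removes IGF2, had 23.4, 33.8 and 30.0 CPM in these classes. INSR had 17.7 CPM in beta-like and 74.3 CPM in progenitor-like cells, and IRS2, an adaptor below both receptors, 12.4 and 77.1 CPM. Of the 11 genes of this list tested in that pair, 5 were at least 2-fold lower in beta-like cells (IGF2R, INSR, IGFBP3, IRS1 and IRS2) and 0 higher, beside 26.7% and 3.46% of all genes, with a median of -0.79 beside -0.60. IGFBP2 had 383 CPM in alpha-like, 615 CPM in duct-like and 53.0 CPM in beta-like cells, while IGFBP5 had 474 CPM in beta-like and 58.9 CPM in duct-like cells. The mRNA-binding genes IGF2BP1 and IGF2BP3 were highest in duct-like cells, at 111 and 79.5 CPM, and IGFBP1 was 41.5 CPM in alpha-like cells. Of 13 tested between duct-like cells and the endocrine classes, 6 were higher (IGF2BP1, IGF2BP3, IGFBP2, IGFBP3, IGFBP4 and IGFBP7) and 2 lower (IGFBP1 and IGFBP5), beside 19.7% and 16.5% of all genes, and the median was 0.74 beside 0.10. A gene of the 13 under 10 CPM in the endocrine classes was tested only through duct-like cells, which nearly sets its call and raises the median. Between the libraries 0 of 11 were 1.5-fold apart over all cells, beside 0.493% of all genes.

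Other G protein subunits and receptors that signal through GNAS were followed over the same classes. GNAI1, an inhibitory alpha subunit, was led by alpha-like cells as GNAS was, at 118 CPM against 66.7 CPM in beta-like cells. GNAI2 had 466 CPM in progenitor-like and 236 CPM in beta-like cells, and GNB1 267 and 125 CPM. GNAQ, GNA11, GNAZ, GNA13, GNB1 and GIPR were the 6 of 12 tested that were at least 2-fold lower in beta-like than in progenitor-like cells, and GNAT3, one of the markers that named the beta-like class, alone was higher (22.0 and 1.92 CPM), beside 26.7% and 3.46% of all genes. Of 12 tested in duct-like cells 7 were lower than in the endocrine classes and 0 higher, beside 16.5% and 19.7% of all genes, with a median of -1.14 beside 0.10. Between the libraries 0 of 12 were 1.5-fold apart over all cells, beside 0.493% of all genes.

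Over 24 points, 12 finer clusters in each of 2 libraries, the genes most like each member were found by Pearson's r of log2(CPM + 1) among 9009 genes. The points share libraries and depth, and the values are descriptions. GNAS was most like CAPZB (0.97), GYG1 (0.87) and ATP5E (0.86). IGF2 was most like TNFRSF12A (0.92), its own antisense gene IGF2-AS (0.91) and NDUFA4 (0.88). DLK1 was most like PABPC4 (0.88), TAF1D (0.88) and RCN2 (0.84), and MEG3 most like EIF2S3 (0.87), TET1 (0.86) and PABPC4 (0.85). PEG10 was most like IMMP1L (0.87), GNPTG (0.85) and RP11-195F19.5 (0.85), and PLAGL1 most like ECEL1 (0.87), PAM (0.82) and ZDHHC14 (0.81). Among the members, r was 0.81 for DLK1 with MEG3 and 0.64 without the 2 duct-like points, 0.71 and 0.41 for DLK1 with IGF2, 0.61 and 0.10 for MEG3 with IGF2, and 0.73 and 0.73 for PEG10 with GNAS.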

How the data were processed

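Single-cell 3' libraries were made on the 10x Genomics platform, 1 per condition, and the deposited values are whole UMI counts per gene and barcode, made by the authors with Cell Ranger (3.0.2 per the file headers) on GRCh38. The submitters' processing notes also name kallisto, bustools 0.40.0, Scanpy and Seurat, with no role. The annotation release behind the counts is not given in the sources used here.

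Groups came from the treatment labels. Barcodes under 1000 UMIs were dropped and doublets called by Scrublet in scanpy 1.11.5 were removed. Cells were clustered (50 components, 3 neighbours per library, Leiden in leidenalg 0.10.2 at resolutions 0.2 and 0.5, separately) with all imprinted genes on the lists left out, and clusters were named from marker lists. Names were rebuilt here, so they may differ from those of the study. UMIs were summed per class and library and scaled to CPM. Intervals are exact Poisson for levels, exact conditional binomial for ratios and Clopper-Pearson for shares (scipy 1.17.1). Genes at 10 CPM or more in either side were compared, counting 2-fold between classes and 1.5-fold between libraries. A gene under 10 CPM in 1 side was thus tested only through the side where it was higher. No test across samples was possible. Genes of the other lists were named where they reached 20 CPM in a named class, and so were the 3 genes most like each member. RTL1, IRS1, IGFBP4, PHLDA2 and genes that overlap or neighbour a member were named below that level after their values were seen. The members and lists were chosen with earlier results of these data known. The scripts were tested on simulated data. Alternatives covered the doublet, UMI and mitochondrial filters, the clustering, the scaling, the minimum level and each library alone.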

Additional observations from a re-analysis of the deposited data

Results flagged for a closer look

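Among members with at least 10 CPM in a class, 4 had a log2 ratio between the libraries, DOX label over no DOX label, whose 95% counting interval lay above 0 in 1 or more named classes and below 0 in 1 or more others. The highest and the lowest such ratio of each member are given. Each class had 1 library per condition, so none of these differences was tested. The share of all genes that meet this rule was not computed, so the count of 4 is not read as particular to the members. The intervals cover counting error only, and with many UMIs small ratios meet the rule. DLK1 was 0.48 in beta cell progenitor-like and -0.0568 in beta-like cells, and the latter turned to 0.03 with means of log-normalized values. IGF2 was 0.71 in beta cell progenitor-like and -0.0663 in duct-like cells, and the latter turned to 0.10 with doublets kept. PEG10 was 0.60 in proliferating progenitor-like and -0.99 in duct-like cells, and the latter was -0.33 with doublets kept. GNAS was 0.0691 in proliferating progenitor-like and -0.27 in duct-like cells. The duct-like class held 330 cells, and its acinar marker sum was 129 CPM (labelled no DOX) and 503 CPM (labelled DOX). The part of this in the ratios was not tested.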

How the results depend on the processing

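No paired analysis was possible because each condition had 1 library, and no replicate could be left out. Of 78 single-gene ratios 26 were past their fold, 24 of these kept their sign in every alternative run and 16 also stayed past it. Over 13 counts of members, 147 of 163 alternatives were within 1.5 times the count reported. With neighbours not balanced between libraries, the Beta-1-like over Beta-2-like ratio reversed for DLK1 (-0.11) and PLAGL1 (-0.83), 1 member was higher there in place of 3, 1 was lower in beta-like than in alpha-like cells in place of 0, and 0 were higher in proliferating progenitor-like cells in place of 1. Keeping imprinted genes in the clustering also left 1 member higher in Beta-1-like cells. In each library alone 1 member was lower in beta-like than in alpha-like cells, and in the library labelled DOX alone 2 were lower in duct-like cells in place of 1. With doublets kept 0 were lower in duct-like cells, 1 in place of 2 was higher in beta-like than in alpha-like cells, and no proliferating class was found, so its results could not be recomputed. The count lower in proliferating progenitor-like cells was 2 in place of 1 with no minimum level, and 0 with a minimum of 2000 UMIs, imprinted genes kept, another Leiden seed or classes named at resolution 0.5. Leaving INS, GCG, SST and mitochondrial genes out of the totals left 0 higher there, and a minimum of 50 CPM left 0 lower in Beta-1-like than in Beta-2-like cells, since MEG3 was then not tested. The causes of the other moves were not tested. Leaving out the shared barcode sequences, an alternative chosen after seeing the data, changed no count. Depth limits MEG3, at 47 UMIs in alpha-like and 23 in delta-like cells, and 1 library per condition limits every difference between the conditions.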

Other observations

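Among the finer clusters without a name, the 1144 cells led by LYZ had 8.76 CPM of MEG3 (labelled no DOX) and 12.0 CPM (labelled DOX), and, in the same order, 573 and 633 CPM of PEG10. The 2346 cells led by GHRL, the ghrelin gene, whose other leading genes were mitochondrial and which had a median of 1982 UMIs and 70.6% mitochondrial UMIs, had 166 and 181 CPM of DLK1 and 422 and 515 CPM of IGF2.

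A cluster of 1371 alpha-like cells led by GPC5-AS1, 70.2% of them from the alpha-like class, had a median of 2783 UMIs and 0.796% mitochondrial UMIs, against 13604 UMIs and 8.89% in the larger alpha-like cluster, and the part of this in its levels was not tested. It had 1133 and 2077 CPM of PEG10, against 1375 and 1915 CPM in the larger alpha-like cluster, and 23.8 and 31.5 CPM of PLAGL1 against 65.6 and 69.1 CPM. The PEG10 log2 ratio, DOX label over no DOX label, was 0.87 (0.80 to 0.94) in this cluster, past 1.5-fold, and 0.48 in the larger cluster. The share of all genes past that fold in this cluster was not computed.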
